A study of Mus musculus with 12 samples.

Results

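The Fc receptor genes described here are Fcgr1, Fcgr3 and Fcgr4, which encode the activating Fc gamma receptors, Fcgr2b, which encodes the inhibitory receptor, Fcer1g, which encodes the signaling chain of the activating receptors, and Fcgrt, which encodes the heavy chain of the neonatal Fc receptor (FcRn). They were chosen by name, and their Ensembl identifiers were looked up in the mouse annotation of GRCm38. All 6 were found among the 55487 genes counted, and all 6 passed the filter on low counts in both experiments.

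Fc gamma receptors bind the constant part of IgG and let macrophages take up antibody-coated particles and respond to immune complexes. Fcgr1 binds single IgG molecules with high affinity, whereas Fcgr3 and Fcgr4 bind mainly IgG in complexes. The activating receptors are paired with the Fcer1g chain, whose ITAM motif is phosphorylated by Src family kinases and then recruits the kinase Syk. Fcgr2b carries an ITIM motif, which recruits the phosphatase SHIP1 (Inpp5d) and dampens the same signal. FcRn pairs with beta-2-microglobulin (B2m) and binds IgG in acidic endosomes, which returns it to the cell surface and spares it from lysosomal degradation. In bone, Fcer1g and the related chain Tyrobp also pass on the costimulatory signals of osteoclast precursors, which derive from the same lineage as macrophages.

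Bulk RNA-seq was done in 2 experiments on cells from C57BL/6 mice labelled as 8 weeks old. The first held macrophages (BMMs) that had been grown from the marrow of leg bones with macrophage colony-stimulating factor, with 3 libraries from ovariectomized mice (OVX), which lack ovarian estrogen, and 3 from sham-operated mice (sham). The second held cells labelled as mesenchymal stem cells (MSCs), the adherent and passaged cells of marrow, with 2 libraries each of MSCs with no treatment (MSC), MSCs cultured with the RAW macrophage cell line (MSC+RAW) and MSCs cultured with RAW cells stimulated by lipopolysaccharide (LPS), a bacterial activator of macrophages (MSC+RAW-LPS). The labels say that the cells were cocultured, and whether a membrane kept the cells apart in the cultures used for RNA-seq is not given in the sources used here. How many mice gave each library is not given in the sources used here, so the p-values measure the spread between these samples, which may be technical.

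Libraries held 17012923 to 45367105 counts. Sham replicates 2 and 3 were near-identical, as were the 2 MSC+RAW libraries: their counts differed by a constant 2.63 to 3.18 times what sampling alone gives, at low and high counts alike, whereas in every other pair of a group the excess grew with the count. Each of these pairs was summed and counted as 1 sample, which left 3 OVX, 2 sham, 2 MSC, 1 MSC+RAW and 2 MSC+RAW-LPS samples. The 2 columns of each coculture group could not be matched to a replicate number, so these libraries are called a and b. Macrophage markers were checked against the labels. The 18 markers summed to 61520 to 68990 CPM in sham and 46880 to 51650 CPM in OVX. In the libraries labelled MSC all 18 were detected as well, at 31280 to 31440 CPM, against 2682 to 2794 CPM for 12 stromal markers, of which 10 reached a mean of 1 CPM. Collagen genes led the stromal markers, with Col1a2 at 908.5 CPM and Col3a1 at 708 CPM, and Thy1 was lowest at 0.37 CPM. In the BMM libraries the same 12 summed to 6940 to 8229 CPM, above the libraries labelled MSC. This stromal RNA went against a label of macrophages alone. The macrophage receptor Csf1r stood at 1118 CPM in the libraries labelled MSC and at 1054 CPM in sham. The high macrophage markers went against the MSC label. The libraries of both experiments are named by their labels below, without a claim about the cell type. The macrophage markers summed to 38540 to 39130 CPM in MSC+RAW and 15570 to 16090 CPM in MSC+RAW-LPS, where the stromal markers summed to 2128 to 2140 CPM and 4030 to 4066 CPM. Lyz2 made up most of the macrophage sums, at 21790, 26330 and 9562 CPM in MSC, MSC+RAW and MSC+RAW-LPS. In MSC+RAW against MSC 4 of the 18 macrophage markers were called higher and 3 lower, with a median log2 fold change of -0.22. The part of these markers in the differences described below was not tested.

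Of the 6 genes, 4 lie on chromosome 1 within 275749 bases of GRCm38. Fcgr2b spans chr1:170958617-170976547 on the minus strand, Fcgr4 spans chr1:171018920-171029761 on the plus strand, Fcgr3 spans chr1:171051174-171064935 on the minus strand, and Fcer1g spans chr1:171229572-171234365 on the minus strand. Fcgr1 lies on chromosome 3 (chr3:96282909-96293969, minus strand) and Fcgrt on chromosome 7 (chr7:45092990-45103851, minus strand). The 250 bases upstream of the start site are shown from RefSeq (GRCm38.p6, each 5′ to 3′ on the strand of its gene) for Fcgr1 and Fcgr4, the genes with the clearest difference between OVX and sham, and for Fcgr2b, which differed most in the other direction between the coculture groups. The Fcgr1 window is chr3:96293970-96294219, the Fcgr4 window chr1:171018676-171018925 and the Fcgr2b window chr1:170976072-170976321, which lies inside the annotated span of Fcgr2b because RefSeq starts the gene further downstream. Capitals mark a match to the GAS motif (TTCNNNGAA), bound by STAT dimers, or to the core of the ISRE motif (GAAANNGAAA), bound by interferon-regulated factors.
Fcgr1: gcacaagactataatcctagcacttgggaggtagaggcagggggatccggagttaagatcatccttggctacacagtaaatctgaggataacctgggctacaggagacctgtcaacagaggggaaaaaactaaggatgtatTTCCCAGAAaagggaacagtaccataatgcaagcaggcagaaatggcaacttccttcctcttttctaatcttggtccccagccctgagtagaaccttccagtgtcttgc
Fcgr4: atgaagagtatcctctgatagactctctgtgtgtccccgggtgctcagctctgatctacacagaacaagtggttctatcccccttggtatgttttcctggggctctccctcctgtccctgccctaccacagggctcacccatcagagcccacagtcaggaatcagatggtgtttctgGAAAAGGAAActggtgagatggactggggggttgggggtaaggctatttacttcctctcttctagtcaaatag
Fcgr2b: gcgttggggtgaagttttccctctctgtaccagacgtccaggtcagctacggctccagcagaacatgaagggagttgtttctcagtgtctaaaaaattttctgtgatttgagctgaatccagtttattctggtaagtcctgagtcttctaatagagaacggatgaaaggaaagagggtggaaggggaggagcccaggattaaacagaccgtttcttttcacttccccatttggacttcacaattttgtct

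The GAS match of Fcgr1 lay 109 to 101 bases before the start site, and 7.02% of the 32851 mouse promoter windows of this length held a GAS match on either strand. The ISRE core of Fcgr4 lay 73 to 64 bases before the start site, and 2.98% of the windows held one. The core GAGGAA of the PU.1 motif was found on the minus strand of the windows of Fcgr1, Fcgr3 and Fcgr4, and on either strand of 23.3% of all windows. None of these 3 motifs was found in the windows of Fcgr2b, Fcer1g and Fcgrt. A match is a description of letters and says nothing of binding in these cells.

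Fcgr2b and Fcgr3 also share coding sequence. The longest identical stretch of their transcripts has 129 bases and crosses an exon boundary in both genes, between chr1:170966674-170968081 in Fcgr2b and chr1:171054167-171057792 in Fcgr3, and it is printed here because reads within it cannot be told apart between the inhibitory and the activating receptor.
shared stretch: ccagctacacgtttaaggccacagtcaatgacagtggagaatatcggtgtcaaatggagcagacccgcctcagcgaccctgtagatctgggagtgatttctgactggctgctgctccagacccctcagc
Of all 100-base windows, 1.14% of those of Fcgr2b and 2.70% of those of Fcgr3 were shared between these genes, and no other pair of the 6 genes shared any. Exons of Fcgr2b overlap the antisense gene Gm38204 over 155 of 5790 bases. The antisense gene held 0 to 44 counts per library, against 914 to 8136 for Fcgr2b.

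Levels are given as CPM, the counts of a gene scaled to a library total of 1000000 after TMM normalization within each experiment. Differences were tested with edgeR's quasi-likelihood F-test over all genes (two-sided, p adjusted by Benjamini and Hochberg), and a gene was called if it differed 2-fold or more with an adjusted p no higher than 0.05. The plot of levels by library shows all values.

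**Figure D1:**
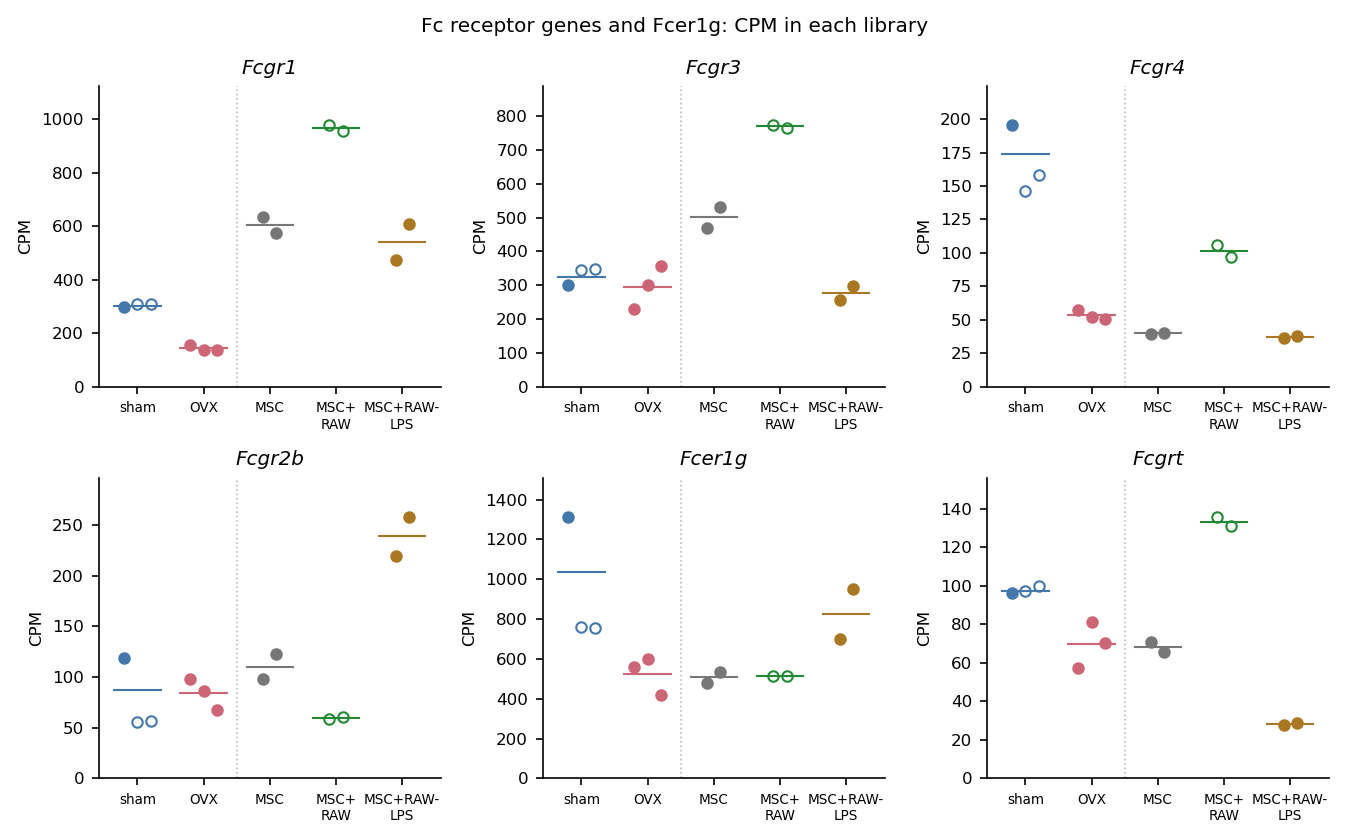
CPM of each gene in every library, with a linear axis from 0 and a panel per gene. Filled points are separate samples, open points are the near-identical libraries that were summed as 1 sample, horizontal lines are group means, and the dotted line parts the 2 separately normalized experiments. Fcgr1 and Fcgr4 lie lower in all 3 OVX libraries than in all 3 sham libraries. Fcgr2b orders the means of the 3 MSC groups opposite to Fcgrt, Fcgr1, Fcgr3 and Fcgr4.

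The comparison of OVX with sham asks how cultures labelled as macrophages, grown from the marrow of mice without ovaries, differ. Of the 6 genes 3 were called, Fcgr1, Fcgr4 and Fcer1g, and all 3 were lower in OVX, where 8.46% of the 16768 genes tested were called in either direction, 3.08% lower and 5.39% higher. With trends on GC content and length removed, the split of all calls went from 903 higher and 516 lower to 220 higher and 370 lower, and 1 of the 6 genes, Fcgr4, was called. Fcgr4 showed the largest difference of the 6. Its level was 57.0, 52.5 and 50.8 CPM in OVX replicates 1 to 3 and 195, 147 and 158 CPM in sham replicates 1 to 3. Each OVX library thus lay far under every sham library, and the OVX values were close to each other. The log2 fold change of Fcgr4 was -1.74 ± 0.18 (SE), a 3.34-fold fall, with an adjusted p of 0.00376 by edgeR. The call was made in all 17 alternative analyses, with log2 fold changes of -1.88 to -1.59. In bulk RNA, fewer cells of a type and less RNA per cell cannot be told apart.

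Fcgr1, the high-affinity receptor, stood at 155, 139 and 136 CPM in OVX and at 297, 310.2 and 310.2 CPM in sham. The groups did not overlap, and the spread within each was small. Fcgr1 fell by 1.12 on the log2 scale (SE 0.17, adjusted p = 0.00868 by edgeR), a 2.17-fold fall. With trends on GC content and length removed, the log2 fold change was -0.94, under the fold limit, at an adjusted p of 0.0157, and without OVX replicate 2 it was -1.09 at an adjusted p of 0.0650.

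Fcgr3, the activating receptor of low affinity, behaved differently. Its level was 230, 301 and 356 CPM in OVX and 301, 346 and 348 CPM in sham. The groups overlapped, and the spread among the OVX libraries was wider than the distance between the group means. The log2 fold change was -0.17 with a 95% confidence interval from -0.68 to 0.34 (adjusted p = 0.656 by edgeR). The interval excludes a fall as large as that of Fcgr4.

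Fcgr2b, the inhibitory receptor, stood at 98.0, 85.9 and 67.8 CPM in OVX and at 119, 55.9 and 56.2 CPM in sham. Sham replicate 1 lay above all OVX libraries, and the near-identical sham replicates 2 and 3 lay under them. The log2 fold change was -0.08 with an interval from -0.78 to 0.61 (adjusted p = 0.883 by edgeR), and its sign depended on the sham samples, at 0.51 without replicate 1 and -0.51 without replicates 2 and 3, a fit added after the data were seen.

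Fcer1g, the signaling chain, stood at 560, 601 and 418 CPM in OVX and at 1314, 762 and 756 CPM in sham. All OVX libraries lay under all sham libraries, and sham replicate 1 was far above the others. The log2 fold change was -1.01 ± 0.26 (SE) with an adjusted p of 0.0393 by edgeR, just past both limits. The direction held in all 17 alternatives, but the call was lost in 11 of them. Without sham replicate 1 the log2 fold change was -0.60 at an adjusted p of 0.0958, and without OVX replicates 1, 2 or 3 the adjusted p was 0.111, 0.109 and 0.0981. Fcgrt stood at 57.2, 81.0 and 70.4 CPM in OVX and at 96.4, 97.4 and 99.7 CPM in sham. The groups did not overlap, yet the difference was not called, with a log2 fold change of -0.53 (95% confidence interval -0.98 to -0.07) and an adjusted p of 0.118 by edgeR. Over the 17 alternatives it ran from -0.64 to -0.14, and none of them made the call. In all, 4 of the 6 genes did not overlap between OVX and sham, as did 42.6% of all genes tested.

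**Figure D2:**
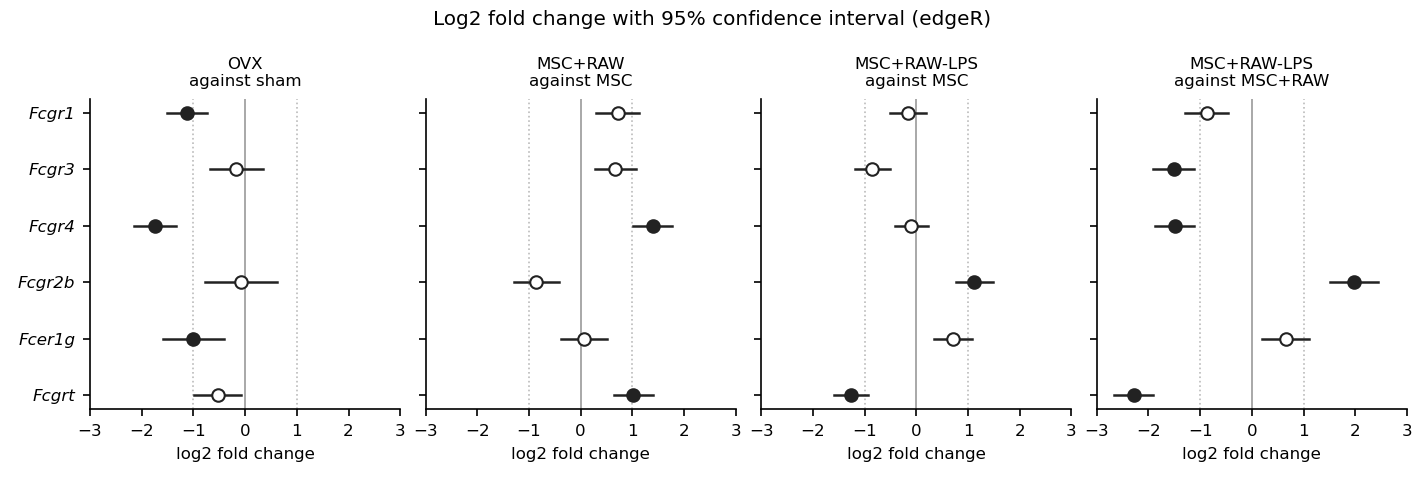
Log2 fold change of the 6 genes in the 4 comparisons, with lines for the 95% confidence interval of edgeR's fit. Filled points passed both the 2-fold limit and the limit of 0.05 on the adjusted p, and dotted lines mark the fold limit. Fcgr4 is farthest from 0 in OVX against sham at -1.74, and Fcgrt is farthest between the coculture groups at -2.28.

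In the second experiment, MSC+RAW and MSC+RAW-LPS were each compared with MSC and with each other to ask how the libraries differed with the culture. Changes in the labelled cells and RNA from RAW cells cannot be told apart in these comparisons. The 3 comparisons share samples, so they are not independent of each other. The MSC+RAW group counted as 1 sample, whose spread was assumed to equal that of the other groups. Of the 6 genes, 2 were called in MSC+RAW against MSC, both higher, where 16.4% of the 20499 genes tested were called, 6.8% higher and 9.59% lower. The share of calls that were higher was 41.5% there, and 52.1% with the same trends removed. In MSC+RAW-LPS against MSC 1 was called higher and 1 lower, where 10.9% of all genes were called, 5.85% higher and 5.09% lower. Between the coculture groups, with differences given as MSC+RAW-LPS relative to MSC+RAW, 1 was called higher and 3 lower, where 27.4% of all genes were called, 15.4% higher and 12.0% lower. Libraries did not overlap for 5, 5 and 6 of the 6 genes, and for 78.4%, 57.6% and 78.1% of all genes. With no fold limit, 5, 4 and all 6 genes passed the adjusted p in these comparisons, where 28.6%, 20.9% and 40.2% of all genes did.

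Fcgr4 was among the genes that differed with untreated RAW cells. It stood at 39.6 and 40.2 CPM in MSC, at 106 and 97.0 CPM in MSC+RAW and at 36.4 and 37.8 CPM in MSC+RAW-LPS. Both MSC+RAW libraries stood well above all others, and the remaining libraries lay close together. Fcgr4 rose by 1.39 ± 0.18 (SE) on the log2 scale in MSC+RAW against MSC (adjusted p = 0.000194 by edgeR), a call made in all 16 alternatives. Between MSC+RAW-LPS and MSC its log2 fold change was -0.10, with an interval from -0.42 to 0.22, and between the coculture groups it was -1.49 ± 0.18 (adjusted p = 1.03e-05 by edgeR).

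Fcgr1 stood at 635 and 575 CPM in MSC, at 977 and 956 CPM in MSC+RAW and at 473 and 609 CPM in MSC+RAW-LPS. The MSC+RAW libraries were the highest, and the other groups overlapped. No difference of Fcgr1 reached the fold limit. The log2 fold change was 0.72 ± 0.20 in MSC+RAW against MSC (adjusted p = 0.0126 by edgeR), -0.15 in MSC+RAW-LPS against MSC (interval -0.50 to 0.20) and -0.87 ± 0.19 between the coculture groups (adjusted p = 0.00217 by edgeR).

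Fcgr3 stood at 469 and 532 CPM in MSC, at 773 and 766 CPM in MSC+RAW and at 256 and 297 CPM in MSC+RAW-LPS. The 3 groups did not overlap, and LPS-stimulated RAW cells went with the lowest levels. The log2 fold change was 0.66 ± 0.19 in MSC+RAW against MSC (adjusted p = 0.0154 by edgeR) and -0.85 ± 0.16 in MSC+RAW-LPS against MSC (adjusted p = 0.000911), both under the fold limit. Between the coculture groups Fcgr3 fell by 1.51 on the log2 scale (SE 0.18, adjusted p = 1.39e-05 by edgeR), a 2.85-fold fall.

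Fcgr2b ran the other way. It stood at 97.9 and 122 CPM in MSC, at 58.1 and 60.2 CPM in MSC+RAW and at 219 and 258 CPM in MSC+RAW-LPS. The groups did not overlap, with the lowest levels in MSC+RAW and the highest in MSC+RAW-LPS. Against MSC, the log2 fold change was -0.85 ± 0.21 in MSC+RAW (adjusted p = 0.00668 by edgeR), under the fold limit, and 1.13 ± 0.16 in MSC+RAW-LPS (adjusted p = 0.000102), which was called. Over the 16 alternatives the value in MSC+RAW ran from -1.01 to -0.42. Without MSC replicate 1 the value in MSC+RAW-LPS was 0.97, just under the fold limit. Between the coculture groups Fcgr2b was 3.94-fold higher with LPS-stimulated RAW cells (log2 fold change 1.98 ± 0.22, adjusted p = 5.9e-06 by edgeR), a call made in all 16 alternatives.

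Fcer1g stood at 478 and 535 CPM in MSC, at 513 and 512 CPM in MSC+RAW and at 700 and 953 CPM in MSC+RAW-LPS. The signaling chain was thus at a like level in the first 2 groups and above it in both MSC+RAW-LPS libraries, which differed between themselves. Its log2 fold change was 0.06 in MSC+RAW against MSC, with an interval from -0.39 to 0.50. In MSC+RAW-LPS it was 0.71 ± 0.17 against MSC (adjusted p = 0.00677 by edgeR) and 0.65 ± 0.22 against MSC+RAW (adjusted p = 0.0241), both under the fold limit.

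Fcgrt had the largest fold between 2 group means of the 6 genes in this experiment. It stood at 70.8 and 65.4 CPM in MSC, at 136 and 131 CPM in MSC+RAW and at 27.4 and 28.8 CPM in MSC+RAW-LPS. The 3 groups were far apart, and the libraries within each were close. In MSC+RAW against MSC Fcgrt rose 2.02-fold (log2 fold change 1.02 ± 0.18, adjusted p = 0.000862 by edgeR), so near the fold limit that the call was lost in 7 of 16 alternatives, with a log2 fold change of 0.56 once trends on GC content and length were removed. In MSC+RAW-LPS it fell 2.41-fold against MSC (log2 fold change -1.27 ± 0.15, adjusted p = 1.46e-05) and 4.87-fold against MSC+RAW (log2 fold change -2.28 ± 0.18, adjusted p = 1.46e-07), and both calls were made in all 16 alternatives.

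The balance of activating and inhibitory receptors was read from ratios of counts within a library, which do not depend on how libraries are scaled. In OVX the log2 ratio of Fcgr4 to Fcgr2b counts was -0.78, -0.71 and -0.42, and in sham it was 0.72, 1.39 and 1.49. Counts of Fcgr4 were thus under those of Fcgr2b in every OVX library and above them in every sham library. The sign of such a ratio depends on gene length, with 1256 exon bases for Fcgr4 and 5790 for Fcgr2b, and per kilobase of exon Fcgr4 was above Fcgr2b in OVX too, at 42.5 against 14.5 CPM per kilobase, so only differences between groups are read from these ratios. The group means were -0.64 ± 0.19 (SD, n = 3) and 1.08 ± 0.51 (SD, n = 2). The log2 ratio of Fcgr1 to Fcgr2b averaged 0.79 in OVX and 1.89 in sham, again without overlap. That of Fcgr3 to Fcgr2b averaged 1.81 and 1.99 and overlapped, but the overlap rested on sham replicate 1, at 1.34. Without it the sham mean was 2.63, above the OVX libraries at 1.23, 1.81 and 2.39. With 3 against 2 samples, the exact permutation test cannot give a two-sided p under 0.2, so no test of these ratios was made.

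**Figure D3:**
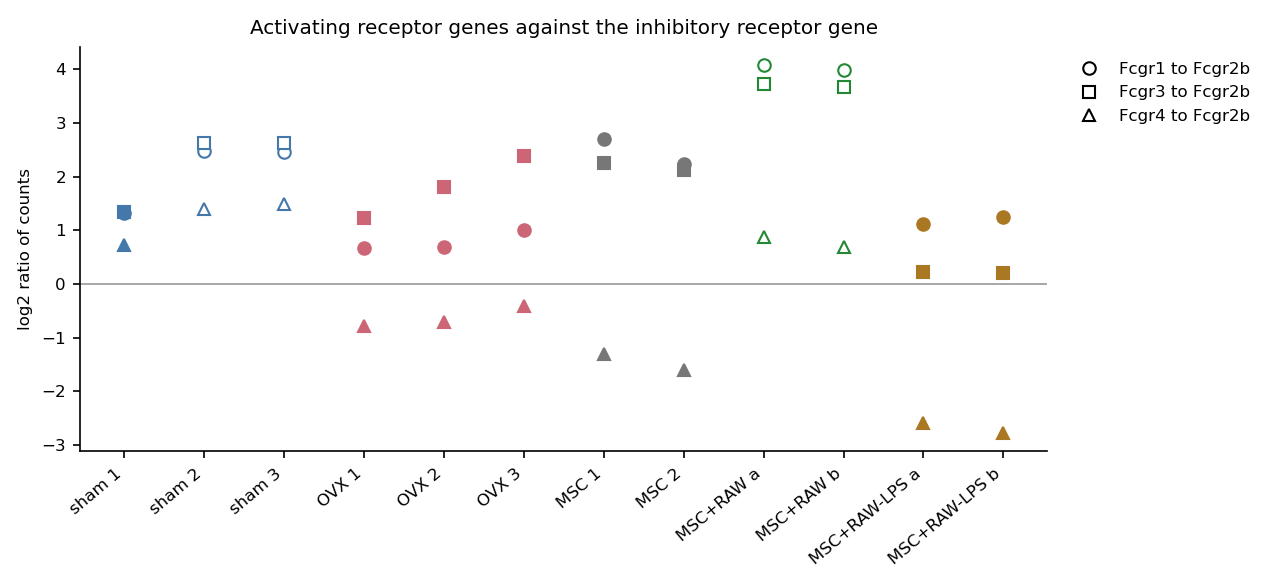
Log2 ratio of the counts of each activating receptor gene to those of Fcgr2b in every library, by marker shape, with open markers for the near-identical libraries. The 3 ratios are highest in MSC+RAW and lowest in MSC+RAW-LPS among the MSC groups, and the ratio of Fcgr4 to Fcgr2b is lower in OVX than in sham. The ratios are not scaled by gene length, so the line at 0 does not mark equal levels of the genes.

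Among the MSC groups, all 3 ratios were highest in MSC+RAW and lowest in MSC+RAW-LPS, with no overlap. The log2 ratio of Fcgr3 to Fcgr2b was 2.26 and 2.12 in MSC, 3.73 and 3.67 in MSC+RAW and 0.22 and 0.20 in MSC+RAW-LPS. That of Fcgr1 to Fcgr2b averaged 2.46, 4.03 and 1.17, and that of Fcgr4 to Fcgr2b averaged -1.45, 0.78 and -2.68 in the same order. The means of the 3 ratios differed by -3.49 to -2.86 on the log2 scale between MSC+RAW-LPS and MSC+RAW. The ratio of Fcgr4 to Fcgr3 was alike in MSC+RAW and MSC+RAW-LPS, at -2.92 and -2.89, and overlapped between them.

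Levels of different genes were compared per kilobase of exon. On this scale Fcgr3 made up the largest share of the 4 receptor genes in sham, at 40.9% ± 5.0 (SD, n = 2), followed by Fcgr4 at 30.2% ± 4.7, Fcgr1 at 25.6% ± 1.3 and Fcgr2b at 3.29% ± 1.61. In OVX the share of Fcgr3 was 59.8% ± 7.2 (SD, n = 3), that of Fcgr1 19.8% ± 3.4, that of Fcgr4 15.2% ± 2.4 and that of Fcgr2b 5.22% ± 1.43. The share of Fcgr4 lay at 26.2% or more in each sham library and at 17.8% or less in each OVX library. Since the shares of a library sum to 100%, a larger share of Fcgr3 is not a higher level of Fcgr3.

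**Figure D4:**
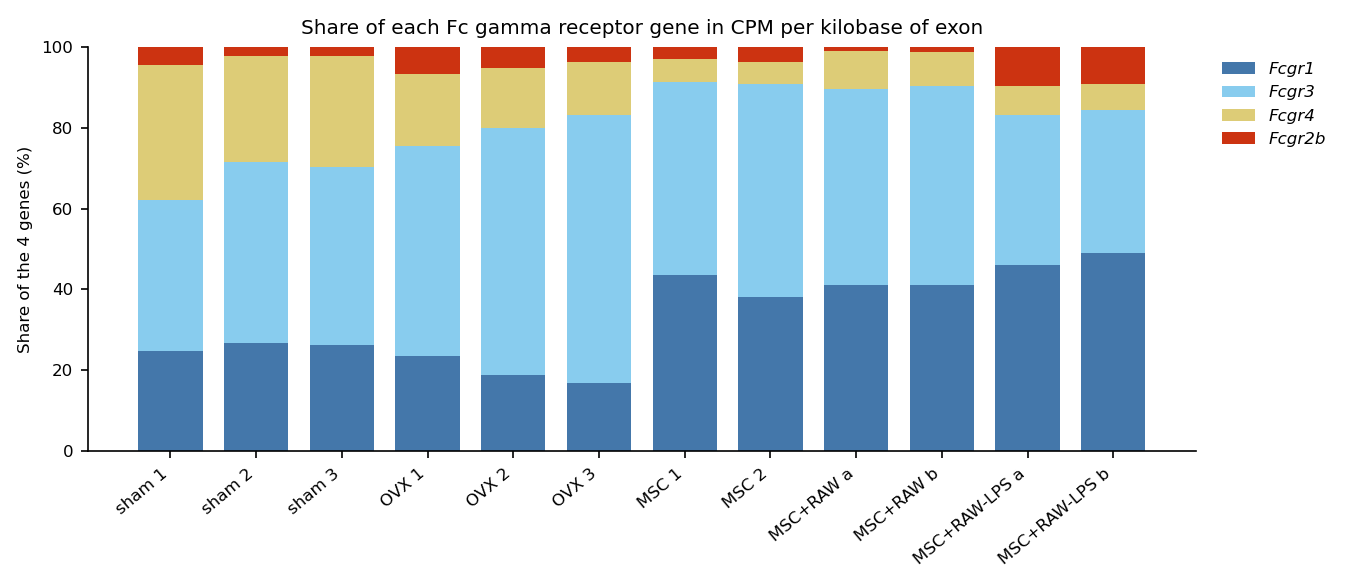
Share of each Fc gamma receptor gene among the 4, in percent of their summed CPM per kilobase of exon, as stacked bars from 0 for every library. Fcgr4 takes 26.2% to 33.5% in sham and 13.1% to 17.8% in OVX, and Fcgr2b takes 9.26% to 9.54% in MSC+RAW-LPS and at most 1.16% in MSC+RAW.

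In the MSC groups Fcgr1 and Fcgr3 together dominated. Fcgr1 took 40.8% in MSC, 41.1% in MSC+RAW and 47.5% in MSC+RAW-LPS, and Fcgr3 took 50.3%, 48.9% and 36.4%. Fcgr2b, which was a minor gene throughout, took 3.31% ± 0.45 (SD, n = 2) in MSC, 1.13% in MSC+RAW and 9.40% ± 0.20 (SD, n = 2) in MSC+RAW-LPS. With the length of the principal transcript in place of the exon length, the Fcgr2b shares were 4.64%, 1.60% and 13.2%, in the same order.

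The signaling chain was also set against the receptors that use it. Per kilobase, Fcer1g held 2.69, 2.56 and 1.61 times the summed level of Fcgr1, Fcgr3 and Fcgr4 in OVX and 3.39, 2.0 and 1.94 times in sham, with overlap. In the MSC groups it held 1.00 and 1.09 times in MSC, 0.65 and 0.66 times in MSC+RAW and 2.23 and 2.50 times in MSC+RAW-LPS. MSC+RAW was therefore the group in which the summed receptor genes were above the chain.

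Across all 5 groups, whose 2 experiments were normalized separately and were not tested against each other, each gene had its own order. By mean CPM, Fcgr1 was highest in MSC+RAW (966), followed by MSC (605), MSC+RAW-LPS (541), sham (303.5) and OVX (143), and MSC and MSC+RAW-LPS overlapped. Fcgr3 ran from MSC+RAW (769.5) through MSC (500.5), sham (324) and OVX (296) to MSC+RAW-LPS (276.5), and OVX overlapped with both of its neighbors. Fcgr4 was highest in sham (174) and then ran through MSC+RAW (101.5), OVX (53.4) and MSC (39.9) to MSC+RAW-LPS (37.1), with no overlap between neighbors. The high level in sham set Fcgr4 apart from the other receptor genes.

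Fcgr2b ran from MSC+RAW-LPS (239 CPM) through MSC (110.1), sham (87.5) and OVX (83.9) to MSC+RAW (59.2), where sham overlapped with MSC, OVX and MSC+RAW, and OVX overlapped with MSC. Fcer1g ran from sham (1037) through MSC+RAW-LPS (826) and OVX (526) to MSC+RAW (513) and MSC (507), and OVX, MSC+RAW and MSC overlapped, as did sham and MSC+RAW-LPS. Fcgrt ran from MSC+RAW (133) through sham (97.5), OVX (69.5) and MSC (68.1) to MSC+RAW-LPS (28.1), with overlap of OVX and MSC. The highest group of Fcgr2b was the lowest of Fcgrt and the reverse. Fcgr3 had the same highest and lowest groups as Fcgrt, though its lowest group overlapped with OVX.

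The genes whose log2 CPM followed each of the 6 most closely were listed over the 10 samples and the 10549 genes whose mean reached 5 CPM, as a description, since the samples fall into 2 experiments. Fcgr1 was followed by Rinl (Pearson's r = 0.99), Ankrd40 (0.98) and Gm13822 (0.98), and Fcgr3 by Trim47 (0.98), Fam50a (0.97) and Rem1 (0.97). Fcgr4 was followed by Casp9, an initiator caspase (0.97), Vamp8 (0.95) and Erp29 (0.95). Fcgr2b was followed by the hyaluronan receptor Cd44 (0.97), Zwint (0.96) and Lrrc8c (0.96). None of these was another Fc receptor gene. Fcer1g was followed by Wbp2 (0.94), Aldh1b1 (0.92) and Nop9 (0.91), and Fcgrt by the lysosomal enzymes Naglu (0.99) and Hexa (0.99) and by the phosphatase Ptpn18 (0.98). Among the 6 genes themselves, the values were 0.65 for Fcgr1 with Fcgr3, 0.71 for Fcgr4 with Fcgrt and -0.88 for Fcgr2b with Fcgrt.

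The chromosome 1 stretch that holds Fcgr2b, Fcgr4, Fcgr3 and Fcer1g has 7 other protein-coding genes, of which 6 passed the filter. In OVX against sham, 2 of the 4 Fc genes of the stretch and 0 of these 6 were called by edgeR, where 8.46% of all genes tested were, a share at which few or none of 6 genes would be called. DESeq2 also called 0 of the 6, and 0 of them reached an unadjusted p of 0.05, with a lowest adjusted p of 0.179 for Sdhc. In MSC+RAW-LPS against MSC, Cfap126 (log2 fold change -2.28) and Pcp4l1 (-4.90) were called lower while Fcgr2b was called higher, so neighbors in the stretch moved in opposite directions.

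The genes of the pathway were read from lists chosen by function, and each count in OVX against sham is to be read against the 8.46% of all genes called. Of 29 genes of activating ITAM signaling, 9 were called in OVX against sham, all of them lower, and the list's median log2 fold change was -0.69, against -0.01 over all genes tested. Rac2, a GTPase needed for phagocytosis, fell with a log2 fold change of -2.0. Syk, which docks on the phosphorylated chain, fell from 242 to 103 CPM (log2 fold change -1.27 ± 0.20, adjusted p = 0.00956 by edgeR). Tyrobp, the sister chain of Fcer1g, was not called at a log2 fold change of -0.70 (adjusted p = 0.0392 by edgeR), under the fold limit. Vav1, Prkcb, Fgr, Pik3cd, Pik3ap1 and Lcp2 fell as well, by 1.08 to 1.42 on the log2 scale, of which Vav1, Pik3cd and Pik3ap1 were named after their values were seen.

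Of 18 genes of inhibitory ITIM signaling, 4 fell and 2 rose in OVX, with a median of -0.43. Siglece (-2.19), Dok2 (-1.18) and Dok3 (-1.14), as well as the phosphatase Ptpn6 (-1.12), fell, and the inhibitory receptors Lilrb4a (1.63) and Cd33 (1.58) rose. Inpp5d, the phosphatase that Fcgr2b recruits, had a log2 fold change of -0.81 (adjusted p = 0.0330 by edgeR), under the fold limit, and was not called. Of 18 regulators of Fc receptor genes, 4 fell and 1 rose, with a median of -0.56. Among those that fell were Spi1 (-1.46), which encodes PU.1, Stat2 (-1.20) and, named after its value was seen, the interleukin 4 receptor gene Il4ra (-1.20). The TGF-beta receptor gene Tgfbr1 (1.74) rose.

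The smaller lists held few called genes in OVX. Of 8 tested genes of FcRn partners and recycling, 1 fell, the endocytic recycling gene Ehd1 (-1.47), and B2m had a log2 fold change of -0.12 (adjusted p = 0.831 by edgeR). Of 7 tested receptors that use the Fcer1g chain, 1 fell, the osteoclast-associated receptor Oscar (-1.65), at 1.26 CPM in OVX and 3.86 CPM in sham, whereas Clec4d, Clec4e and Clec4n were not called. Fcer1a, the IgE-binding subunit, stood at 0.28 and 0.30 CPM. Of 6 tested other Fc and Fc-like receptors, 2 fell, Fcrls (-1.11) and Fcrl5 (-2.41). Fcrls was the most abundant of them, at 1372 CPM in OVX and 2883 CPM in sham.

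**Figure D5:**
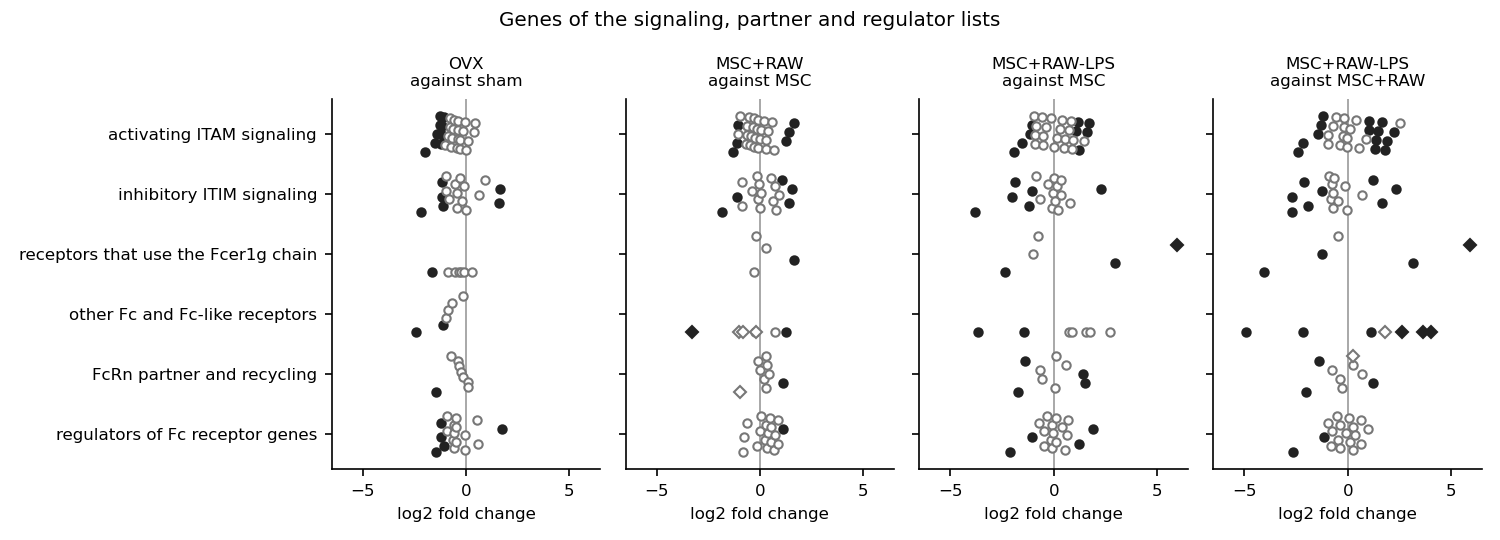
Log2 fold change of each tested gene of the 6 lists in the 4 comparisons, with the height of a point within its row without meaning. Filled symbols were called, and diamonds are bounds for genes of which every library of a group held at most 3 counts. In OVX against sham the activating ITAM genes lie mostly under 0, with a median of -0.69, and in the other comparisons they spread to both sides.

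In the MSC groups the lists moved both ways, where 16.4% of all genes were called in MSC+RAW against MSC, 10.9% in MSC+RAW-LPS against MSC and 27.4% between the coculture groups. Of the 29 activating ITAM genes, 3 rose and 3 fell in MSC+RAW against MSC, 5 rose and 4 fell in MSC+RAW-LPS against MSC, and 9 rose and 5 fell between the coculture groups, with medians of -0.23, 0.17 and -0.03 against -0.13, -0.01 and 0.14 over all genes. Those called with untreated RAW cells were Tyrobp (1.67), Hcst (1.42) and Rac2 (1.25), which rose, and the kinase Lyn (-1.32), Blnk (-1.09) and Cbl (-1.05), which fell. With LPS-stimulated RAW cells Fgr (1.72), Prkcb (1.63), Lcp2 (1.22) and Rac2 were among those that rose, and Vav3 (-1.91), Lat2 (-1.52), Btk (-1.15) and Tec (-1.04) fell, of which Cbl, Btk and Tec were named after their values were seen. The chains differed. Tyrobp stood at 657 CPM in MSC, 2020 CPM in MSC+RAW and 458 CPM in MSC+RAW-LPS, and fell by 2.18 on the log2 scale between the coculture groups, where Fcer1g had a log2 fold change of 0.65. Hcst, a further adaptor chain, followed Tyrobp with 21.3, 55.2 and 10.8 CPM. Syk rose between the coculture groups (1.04), as did Prkcb (2.25) and Lcp2 (1.88), and Rac2 had a log2 fold change of -0.19 there after a rise in both groups against MSC (1.25 and 1.06).

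Of the 18 inhibitory ITIM genes, 3 rose and 2 fell in MSC+RAW against MSC, 1 rose and 5 fell in MSC+RAW-LPS against MSC, and 3 rose and 5 fell between the coculture groups, with medians of 0.03, -0.06 and -0.71. With untreated RAW cells Dok2 (1.53), Dok3 (1.40) and Siglecg (1.09) rose and Lilrb4a (-1.81) and Cd300a (-1.11) fell. With LPS-stimulated RAW cells Siglece rose by 2.27 on the log2 scale against MSC, while Cd300a (-3.82), Lair1 (-2.02), Lilrb4a (-1.86), Dok2 (-1.18) and Siglecg (-1.04) fell. Between the coculture groups Siglece (2.33), Cd33 (1.67) and Ptprc (1.22) rose, and Dok2 (-2.71), Cd300a (-2.71), Siglecg (-2.13), Lair1 (-1.90) and Dok3 (-1.22) fell. Ptprc was on this list, though it neither carries an ITIM nor is recruited by one. Siglecg and Ptprc were named after their values were seen. In MSC+RAW-LPS against MSC, Inpp5d had a log2 fold change of -0.84 (adjusted p = 0.000623 by edgeR), under the fold limit. Ptpn6 had one of 0.22 (adjusted p = 0.383), and neither was called.

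The receptors that share the Fcer1g chain moved in opposite directions. The C-type lectin Clec4e, which senses mycobacterial glycolipid and dead cells, stood at 170 CPM in MSC, 145 CPM in MSC+RAW and 1309 CPM in MSC+RAW-LPS, a rise of 2.95 on the log2 scale against MSC (adjusted p = 1.74e-09 by edgeR). Clec4n, which encodes Dectin-2, stood at 843, 2594 and 162 CPM in the same order, and fell by 4.03 on the log2 scale between the coculture groups. Gp6, the platelet collagen receptor, held at most 3 counts in each MSC library and 4.75 CPM in MSC+RAW-LPS, at least 63.3-fold higher than the 3-count floor per library. In this list of 5 tested genes, Clec4n was the 1 gene called in MSC+RAW against MSC, 2 rose and 1 fell in MSC+RAW-LPS against MSC, and 2 rose and 2 fell between the coculture groups, Pira2 (-1.27) among the latter. The list's medians were 0.28 (0.05 without Gp6, which was at the floor in both groups), -0.76 and -0.48.

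Of 9 tested genes of FcRn partners and recycling, 1 rose in MSC+RAW against MSC, 2 rose and 2 fell in MSC+RAW-LPS against MSC, and 1 rose and 2 fell between the coculture groups. B2m, the partner of Fcgrt, stood at 2220 CPM in MSC, 1999 CPM in MSC+RAW and 3338 CPM in MSC+RAW-LPS and was not called in any of these comparisons. Ehd1 rose in both coculture groups against MSC (1.13 and 1.41), Rab11fip1 rose with LPS-stimulated RAW cells (1.51), and Ehd4 (-1.71) and Rab11fip5 (-1.38) fell there. Between the coculture groups Rab11fip1 rose (1.22) and Ehd4 (log2 fold change -2.0) and Rab11fip5 (-1.40) fell. Of 18 regulators, 1 rose with untreated RAW cells, Spi1 (1.10), and with LPS-stimulated RAW cells 2 rose, among them Cebpb (1.88), and Cebpa (-2.11) and C5ar1 (-1.03) fell. Between the coculture groups 2 of the 18 regulators were called, Cebpa (-2.67) and Il10rb (-1.16), both lower. Of 7 tested other Fc and Fc-like receptors, 2 were called in MSC+RAW against MSC, 2 in MSC+RAW-LPS against MSC and 6 between the coculture groups. Fcrls stood at 1541, 3601 and 121 CPM in MSC, MSC+RAW and MSC+RAW-LPS, and all 3 differences were called. Fcgrt, Fcgr1, Fcgr3 and Fcgr4 shared this order of group means. Fcrl1 fell with LPS-stimulated RAW cells against both other groups (-1.42 and -2.15), and Trim21 rose between the coculture groups (1.14). Fcrl5, Fcrlb and Fcer2a were at or under 3 counts in each MSC+RAW library and were at least 16.2-, 12.7- and 6.14-fold higher in MSC+RAW-LPS than that floor, and Fcrl5 was at least 9.63-fold higher in MSC. Trim21 and Fcer2a were named after their values were seen. With such genes at their bounds, the list's medians were -0.24, 0.90 and 1.82, and -5.08, 0.90 and 6.65 from the fit.

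Markers of other cells that carry Fc receptors were also read. The 8 osteoclast markers summed to 665 to 767 CPM in sham and 342 to 352 CPM in OVX. Of the 7 tested, 4 were called lower in OVX, as were Fcgr1, Fcgr4 and Fcer1g, where 3.08% of all genes were. These 4 were Mmp9 (-1.72), Ocstamp (-1.67), Oscar (-1.65) and Acp5 (-1.22). Atp6v0d2 of the same list went the other way, at 25.4 CPM in OVX and 13.8 CPM in sham without overlap, and was not called. The median of the 7 was -1.22. All but Oscar were named after their values were seen. The 11 neutrophil markers summed to 1223 to 1360 CPM in OVX and 834 to 926 CPM in sham, and 0 of the 11 were called by edgeR, 1 was called by DESeq2, and 6 reached an unadjusted p of 0.05, 4 of them higher in OVX. The 8 B cell markers summed to 12.9 to 15.4 CPM in OVX and 26.4 to 30.2 CPM in sham, with 2 of 7 tested called lower and a median of -0.78. The 8 NK cell markers summed to at most 1.66 CPM. The macrophage markers, lower in sum in OVX, had a median of -0.30 on the log2 scale, and 3 of the 18 were called lower and 1 higher. In the MSC groups the neutrophil markers summed to 12.0 to 16.4 CPM in MSC, 31.5 to 34.5 CPM in MSC+RAW and 371 to 554 CPM in MSC+RAW-LPS, with Ly6g, Mpo, Ctsg, S100a9, Ltf and Retnlg at 0 in MSC. The sum in MSC+RAW-LPS was carried by S100a8 (428 CPM) and Camp (34.1 CPM), the 2 of the 11 that reached 1 CPM there, and Elane, Ltf and Retnlg were at 0. The osteoclast markers summed to 108 to 112 CPM in MSC, 144 to 145 CPM in MSC+RAW and 828 to 886 CPM in MSC+RAW-LPS, where Mmp9 stood at 718 CPM. Of the 6 tested, 2 were called higher and 1 lower in MSC+RAW-LPS against MSC, with a median of 0.09. Atp6v0d2 stood at 17.4 CPM in MSC and 3.02 CPM in MSC+RAW-LPS. The 8 mast cell and basophil markers summed to 47.7 to 54.0 CPM in MSC, 84.2 to 86.3 CPM in MSC+RAW and 114 to 122 CPM in MSC+RAW-LPS. Of the 7 tested, Hdc (3.42) and Mcpt8 (1.27), named after their values were seen, were called higher in MSC+RAW-LPS against MSC, and their median was -0.24. Of the 18 macrophage markers, 11 were called lower and 2 higher in MSC+RAW-LPS against MSC, where Fcgr2b was called higher and Fcgrt lower. Their median was -1.21. Of the 12 stromal markers, 3 were called higher and 0 lower there, with a median of 0.45. In the comparison of the coculture groups 9 macrophage markers were called lower and 3 higher, with a median of -0.91. Of the 12 stromal markers, 5 were called higher and 1 lower in that comparison, with a median of 0.76. The part of these cells in the Fc receptor differences was not tested.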

How the data were processed

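The data were RNA-seq counts of 12 libraries in 5 groups. Per the methods and the submitters' processing notes, poly(A) libraries from a directional kit were sequenced in read pairs, trimmed with Trim Galore 0.6.7, mapped to GRCm38 with HISAT2 2.1.0 and counted per Ensembl gene with featureCounts 2.0.1. The values the authors deposited are raw counts, neither normalized nor filtered, together with the exon length of each gene in bases. The strand setting and whether both reads of a pair were counted are not given in the sources used here. Even values made up 60.0% to 71.4% of the counts from 1 to 20, so counts may not be independent molecules. GENCODE annotation of GRCm38 named 55141 of the 55487 genes. RefSeq gave the promoter windows.

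Groups came from the treatment labels. For each pair of libraries in a group, a chi-square of every gene that reached 20 counts in both together was divided by the median expected from sampling. Its median over genes of high counts, divided by that over genes of low counts, was 1.03 (sham replicates 2 and 3) and 1.005 (MSC+RAW), under the limit of 1.5, and 2.61 to 8.03 in all other pairs. The near-identical libraries were summed. Replicate numbers of OVX and sham were not shown to pair the samples. Deviations from the group means correlated at 0.546, -0.0616 and 0.565 between libraries of the same number. OVX replicate 3 correlated at 0.551 with sham replicate 2 as well. Because sham replicates 2 and 3 were near-identical, these values cannot decide whether the numbers pair the samples.

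Genes kept by filterByExpr were tested with edgeR 4.0.16 (R 4.3.3), with TMM normalization and 1 fit per experiment. SDs are over samples. Shares and ratios of receptor genes were computed in python 3.11.15, with CPM divided by the exon length in kilobases. The 6 genes, the lists and the marker sets were chosen with earlier results of these data known. The genes named were the 6 genes, up to 2 called genes with the largest rise and 2 with the largest fall of each list and comparison, Syk, Inpp5d, Ptpn6, Tyrobp, Hcst, B2m, Fcer1a, Ms4a2 and Spi1, and the 3 genes most like each of the 6. Some genes that this rule names are not reported here. Ms4a2 was not tested because its counts were too low. Of 14 receptors that use the Fcer1g chain, 8 were found by symbol. Where every library of a group held at most 3 counts, the fold is given as a bound against that floor. The fits were tested on simulated data. Alternatives were RLE normalization, DESeq2 1.42.0, other filters, no fold limit, every library as its own sample, blocks and halved counts. Further ones were taking out lowess trends (span 0.3) on length and GC content, fitting only the 2 MSC groups compared, and leaving out each library. Added after the data were seen were a block on the library code in the column headers, the fit without sham replicates 2 and 3, and the principal transcript length.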

Additional observations from a re-analysis of the deposited data

How the results depend on the processing

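Of the alternative values of the 24 log2 fold changes of the 6 genes, 354 kept direction and side of the limits, 21 lost the call, 9 gained it and 6 changed sign. Most of the gained calls came from dropping the fold limit, a setting in which no call can be lost. Of the alternative ratios and shares, 158 stayed within the replicate spread and 20 moved past it, mostly shares computed with the principal transcript length, and of the alternative group levels 111 stayed and 21 moved, mostly without TMM scaling. The sign changes were all among differences that were not called. Fcgr2b in OVX against sham was at 0.10 with every library as its own sample, 0.16 with the replicate block and 0.12 with the library-code block added to that, -0.21 to 0.51 when 1 library was left out, with 0.05 without OVX replicate 3 and 0.51 without sham replicate 1, and -0.51 without sham replicates 2 and 3. Fcer1g in MSC+RAW against MSC was at -0.027 without MSC replicate 1 and at up to 0.15 without MSC replicate 2.

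In OVX against sham, 1419 genes were called, 2193 with no fold limit and 590 with GC and length trends removed, and leaving out 1 library gave 309 (without OVX replicate 2) to 2390 (without sham replicate 1), with 678 without OVX replicate 1. Trend removal also turned the split of calls from 903 higher and 516 lower to 220 higher and 370 lower. Of the 6 genes, 3 were called, 1 with the trends removed, and 1 to 3 when 1 library was left out. With every library as its own sample 2 were called, among 1818 genes, and 2 among 2117 genes when the replicate block was added to that. The numbers were not shown to pair these samples.

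In MSC+RAW against MSC, 3360 genes were called, 5862 with no fold limit and 2165 with trends removed, which moved the median log2 fold change of all genes from -0.13 to -0.00 and the share of calls that were higher from 41.5% to 52.1%. Of the 6 genes, 2 were called, 5 with no fold limit, 1 with trends removed, 1 with only the 2 groups compared, 1 with every library as its own sample, and 1 to 3 when 1 library was left out. In MSC+RAW-LPS against MSC, 2243 genes were called and 4286 with no fold limit, and of the 6 genes 2 were called, 4 with no fold limit and 1 to 2 when 1 library was left out. No paired analysis by replicate number was possible for the MSC groups because the coculture columns could not be matched to replicate numbers. The block on the library codes in the headers, added after the data were seen, was fitted with every library as its own sample. It called 4489, 2383 and 6629 genes in the 3 comparisons, against 4574, 2412 and 6718 from the same libraries without a block, and 1, 2 and 4 of the 6 genes with or without it. The causes were not tested.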
